A study of Homo sapiens with 8 samples.

Results

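The 34 genes described here encode the hypoxia-inducible factors (HIF), the enzymes that sense oxygen for them, and a set of their well-known target genes. Members were found as probe sets annotated to 1 of these genes alone, by current or earlier symbol, and the brightest probe set stood for its gene. Of the 34 genes, 33 had such a probe set, among 19775 genes in all, and 31 passed the filter on low values, among 14731 genes tested. ADM and EGLN2 were below the filter, and CA9 was not analysed here.

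The RNA on every array came from HTETOP, a line made from the human fibrosarcoma line HT1080 whose TOP2A, the gene of topoisomerase II alpha, is shut off by tetracyclines. The groups were 3 arrays of cells given 100 µM dexrazoxane for 24 h, 3 arrays of their vehicle, 1 array of cells given 1 µg/ml doxycycline for 24 h and 1 array of its vehicle. Each array carried RNA pooled from 3 passages, and no label ties the numbers to separate cultures. The p-values below therefore rest on array-to-array spread, part or all of which may be technical. The comparisons ask what changes when topoisomerase II is blocked by the drug dexrazoxane, and what changes when TOP2A expression is shut off.

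In the presence of oxygen, the prolyl hydroxylases EGLN1, EGLN2 and EGLN3 mark the HIF alpha subunits, and the VHL ubiquitin ligase then has them destroyed. These hydroxylases need oxygen, iron and oxoglutarate, so low oxygen or removal of iron lets HIF alpha protein build up, pair with ARNT and switch on genes for glycolysis, blood vessel growth and matrix. The control acts mostly on protein, which arrays do not measure, and is usually read from the target genes. Dexrazoxane is hydrolysed in cells to a product that chelates iron.

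TOP2A stood at 6.02 on the doxycycline array and 11.98 on its vehicle array (log2), 62.1-fold lower. With dexrazoxane it averaged 10.88 ± 0.34, against 12.45 ± 0.09 with vehicle (SD, n = 3 each), with limma adjusted p of 0.00426 in a fit that pairs same-numbered arrays and 0.0949 in one that does not. Array medians were 4.81 and 4.82 in the doxycycline pair and 5.49 to 5.57 on the other 6 arrays, so levels were not compared between the pair and the rest. The replicate 1 arrays stood apart: SDs of the differences between 2 arrays of one group were 0.354 to 0.370 (log2, 14731 genes) where replicate 1 was one of them, and 0.285 and 0.221 between replicates 2 and 3 of dexrazoxane and vehicle. The calls of KDM4B, CITED2, KRT8 and the p53-induced genes are given with and without them. Of 10 mesenchymal markers 9 passed the filter, against 3 of 6 epithelial, 2 of 6 leukocyte and 3 of 5 endothelial markers. The mean log2 level of the epithelial list was 6.55 to 6.69 on the dexrazoxane arrays and 6.41 to 6.49 on the vehicle arrays. Its keratin gene KRT8 was higher with dexrazoxane in the paired fit (0.51 ± 0.10, SE, log2, limma adjusted p = 0.0334), a call lost without replicate 1 (limma adjusted p = 0.0509), and the part of these markers in the results below was not tested.

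With dexrazoxane, 1 member passed the test and only when same-numbered arrays were treated as pairs: KDM4B, a histone demethylase gene, was 1.43-fold higher. In such bulk RNA, fewer cells of one kind and less RNA per cell cannot be told apart. The limma fit without pairing called 0 of the 31 members, as it called 0% of all 14731 genes; at an unadjusted p under 0.05 it held 1 member, higher with dexrazoxane, against 5.19% of all genes (3.16% higher, 2.04% lower). The paired limma fit called 1 member higher and 0 lower, where 4.87% of all genes were called, 2.42% higher and 2.44% lower. At an unadjusted p under 0.05 it held 7 members (22.6%), 5 higher and 2 lower, against 22.4% of all genes (13% higher, 9.37% lower), a share near the background. The 3 pairs moved in one direction for 11 members (35.5%), against 45.1% of all genes. The median difference was 0.0016 (log2) over the members and 0.016 over all tested genes, with 16 members above 0 and 15 below. The 95% intervals of the paired fit were within 1.5-fold in either direction for 30 of the 31 members, with KDM4B the exception. The share of all genes with such intervals is not given here. Without pairing the intervals were wider and reached past 1.5-fold for more members. Among these were NDRG1 (-0.94 to 1.34), ALDOC (-1.30 to 1.27), VEGFA (-0.99 to 0.35) and SLC2A3 (-0.87 to 0.78). Others stayed within it, such as HIF1A (-0.28 to 0.22). Changes above 1.5-fold are therefore bounded only if the pairing holds.

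**Figure D1:**
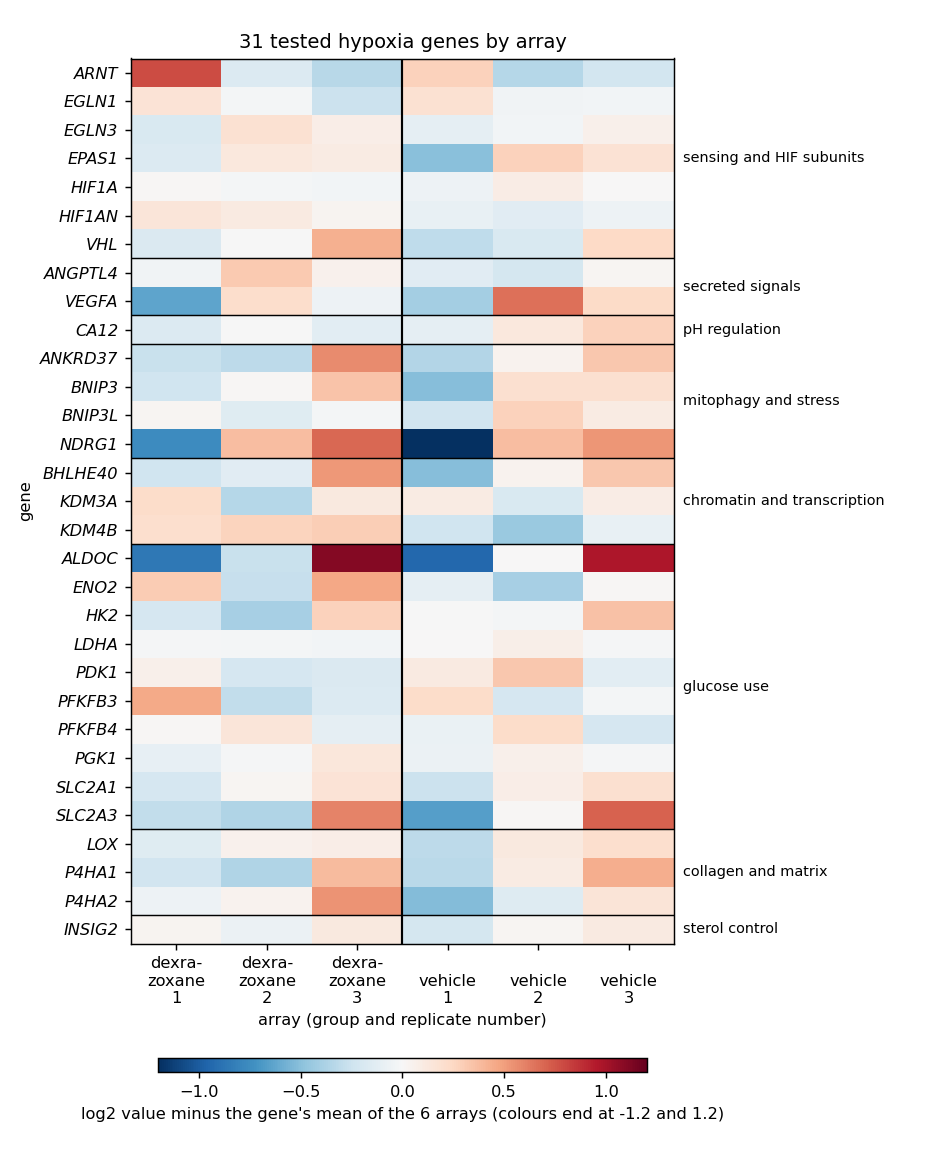
Each row is 1 of the 31 tested genes, grouped by role, and each column is 1 of the 3 dexrazoxane or 3 vehicle arrays; colour gives the log2 value minus that gene's mean over the 6 arrays. Colours follow the replicate number more than the treatment for NDRG1 and ALDOC, low on both replicate 1 arrays, and follow the treatment for KDM4B, higher on each of the 3 dexrazoxane arrays.

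Among the HIF subunits, HIF1A, which encodes the widely expressed oxygen-controlled alpha subunit, measured 12.66, 12.62 and 12.61 (log2) on dexrazoxane arrays 1 to 3, against 12.59, 12.74 and 12.65 on vehicle arrays 1 to 3. The groups overlapped, and the paired 95% interval of the difference ran from -0.21 to 0.15. EPAS1, which encodes the HIF2 alpha subunit, measured 9.26, 9.55 and 9.53 on the dexrazoxane arrays, against 8.93, 9.70 and 9.60 on the vehicle arrays. Both replicate 1 arrays were the lowest of their group, and the treatment difference was 0.04 with a paired interval of -0.20 to 0.28. ARNT, the constitutive partner of the alpha subunits, ran the other way across arrays, at 7.49, 6.54 and 6.37 with dexrazoxane and 6.98, 6.36 and 6.49 with vehicle. Its brightest probe set was highest on both replicate 1 arrays, and the difference of 0.19 had a paired interval of -0.07 to 0.45. The other 3 probe sets of ARNT that passed the filter put replicate 3 below replicate 1 by 0.12 to 0.15, against 0.80 in the brightest.

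Of the sensors, EGLN1, the main hydroxylase acting on HIF alpha in most cells, measured 10.55, 10.36 and 10.13 on the dexrazoxane arrays, against 10.57, 10.35 and 10.36 on the vehicle arrays. EGLN3, a hydroxylase gene that HIF itself induces, was dim, at 4.96, 5.32 and 5.21 with dexrazoxane and 5.02, 5.11 and 5.20 with vehicle. Groups overlapped for both, with paired intervals of -0.26 to 0.11 for EGLN1 and -0.14 to 0.24 for EGLN3. EGLN2, below the filter, measured 4.77, 4.70 and 4.59 with dexrazoxane and 4.62, 4.54 and 4.57 with vehicle. VHL, the substrate receptor of the ubiquitin ligase, measured 6.89, 7.05 and 7.48 with dexrazoxane and 6.75, 6.87 and 7.30 with vehicle. It was higher in 3 of 3 pairs, by 0.13, 0.18 and 0.19, but the groups overlapped and it did not pass (paired limma adjusted p = 0.221).

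HIF1AN, which encodes the asparaginyl hydroxylase that keeps HIF alpha from binding its coactivators, was 1 of 2 members whose dexrazoxane and vehicle arrays did not overlap, the other being KDM4B. It measured 8.54, 8.49 and 8.42 on the dexrazoxane arrays, against 8.29, 8.26 and 8.32 on the vehicle arrays. The difference was 0.19 ± 0.08 (SE, 1.14-fold), higher in 3 of 3 pairs, with limma adjusted p of 0.182 paired and close to 1 without pairing. All 3 of its probe sets that passed the filter had a positive mean difference, from 0.13 to 0.19. Groups that did not overlap made up 6.45% of members and 10.1% of all genes tested (6.53% higher, 3.62% lower). Both members were higher with dexrazoxane, so their share was near the background in that direction.

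KDM4B removes methyl groups from histone H3 and, like the HIF hydroxylases, needs oxygen and iron; it is itself a HIF target. It measured 8.69, 8.76 and 8.79 on the dexrazoxane arrays, against 8.25, 8.05 and 8.40 on the vehicle arrays, so every dexrazoxane array lay above every vehicle array. The means were 8.75 ± 0.05 with dexrazoxane and 8.23 ± 0.18 with vehicle (SD, n = 3 each). The difference of 0.51 had a 95% interval of 0.31 to 0.71 in the paired fit, and pairs 1 to 3 gave 0.44, 0.71 and 0.39. With pairs the limma adjusted p of KDM4B came to 0.0212, and to 0.782 otherwise. Without replicate 1 the paired difference was 0.55 and the limma adjusted p 0.0780, so the call was lost. Without replicate 1 the paired limma fit called 0.665% of all genes, against 4.87% with it.

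KDM4B was read by 6 probe sets that passed the filter. All 6 had a positive mean difference, from 0.04 to 0.51. The brightest (0.51) and a second one (0.40) had the largest, with paired limma adjusted p of 0.0475 and 0.0654 when every probe set was fitted on its own. Its probe sets below the filter had negative mean differences, of -0.19 and -0.15. The mean of all 8 of its probe sets differed by 0.13 (paired limma adjusted p = 0.259). The probe sets of this gene therefore disagreed in size, and those below the filter also in sign.

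Among the other regulators of transcription, KDM3A, a demethylase gene of the same enzyme family and a HIF target, measured 8.79, 8.22 and 8.68 with dexrazoxane and 8.67, 8.38 and 8.65 with vehicle, with overlapping groups. BHLHE40, a HIF-induced repressor that binds E-boxes, differed by 0.09 with a paired interval of -0.14 to 0.32.

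Of the secreted signals, VEGFA, the chief growth factor for blood vessels, was lower in each of the 3 pairs without passing. It measured 9.33, 10.17 and 9.91 on the dexrazoxane arrays, against 9.56, 10.62 and 10.19 on the vehicle arrays. The groups overlapped, the replicate 1 arrays being low in both, and pairs 1 to 3 differed by -0.22, -0.45 and -0.28. The mean difference was -0.32 with a paired 95% interval of -0.50 to -0.14 and a paired limma adjusted p of 0.0614. All 4 of its probe sets had a negative mean difference, from -0.34 to -0.12. Without replicate 1 the difference was -0.37 (paired limma adjusted p = 0.132). In the fit without pairing it came to -0.083 without dexrazoxane array 1, -0.069 without vehicle array 2 and -0.60 without vehicle array 1. ANGPTL4, an inhibitor of lipoprotein lipase, measured 5.87, 6.22 and 5.96 with dexrazoxane and 5.78, 5.70 and 5.93 with vehicle, and most of its difference came from pair 2 (0.52, against 0.09 and 0.03 in pairs 1 and 3). The other ANGPTL4 probe set above the filter went the other way, lower in each pair with a mean difference of -0.11.

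ADM, which encodes the vasodilator adrenomedullin, was below the filter and so outside the main test. It measured 4.56, 5.19 and 5.07 on the dexrazoxane arrays, against 4.14, 4.56 and 4.76 on the vehicle arrays, higher in pairs 1 to 3 by 0.43, 0.63 and 0.31. The groups overlapped by the replicate 1 dexrazoxane array. When all 19775 genes were fitted without a filter the difference of 0.46 ± 0.09 (SE) had limma adjusted p of 0.0428 paired and close to 1 without pairing. Every one of its 8 values lay below the median of its array.

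**Figure D2:**
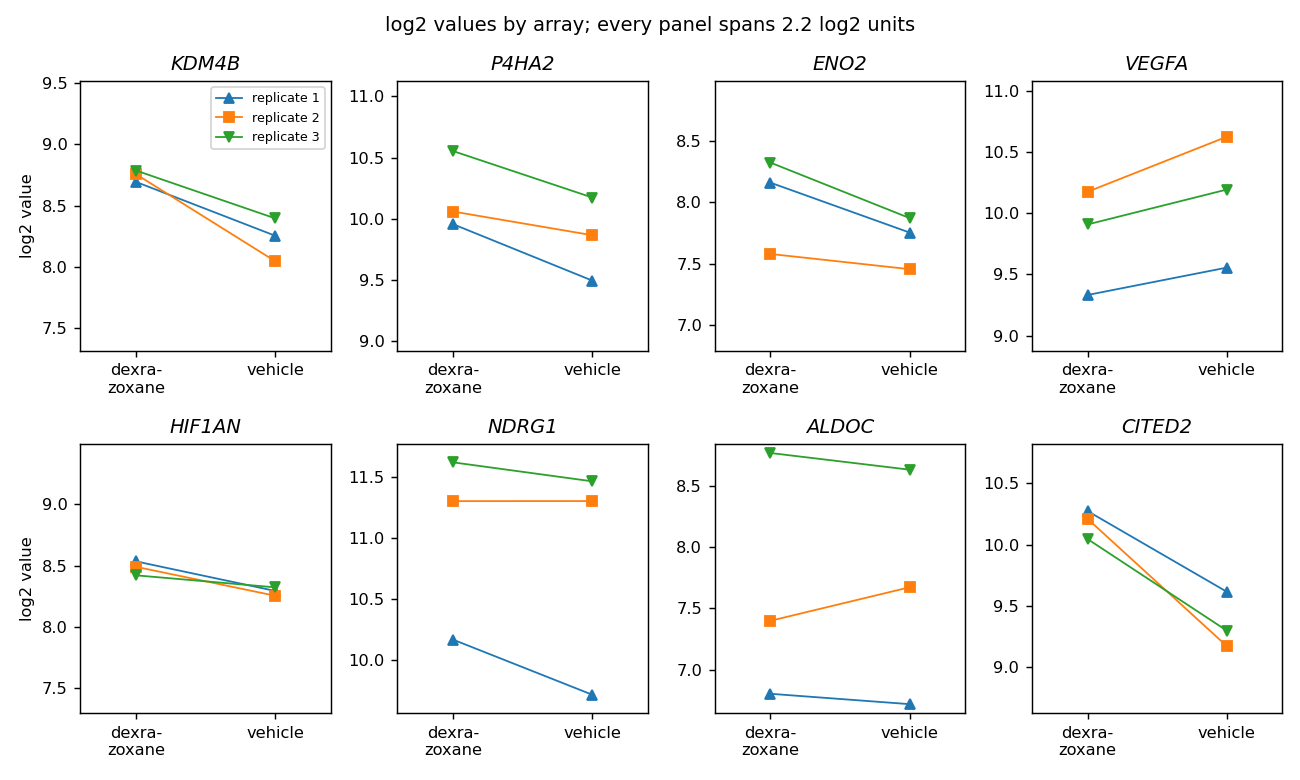
Log2 values of 8 genes on the 3 dexrazoxane arrays (left in each panel) and the 3 vehicle arrays (right), with same-numbered arrays joined by a line. KDM4B and CITED2 slope down to vehicle in each pair, VEGFA slopes up, and NDRG1 and ALDOC have lines that lie far apart, with replicate 1 lowest at both ends.

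Among genes of mitophagy and stress, BNIP3, which targets mitochondria for removal, measured 11.10, 11.35 and 11.67 with dexrazoxane and 10.82, 11.53 and 11.53 with vehicle. Pairs disagreed in direction in this brightest probe set, at 0.27, -0.18 and 0.15. The other BNIP3 probe set above the filter was higher in 3 of 3 pairs, by 0.04, 0.16 and 0.32. NDRG1, a stress-response gene often used as a marker of hypoxia and of iron chelation, measured 10.17, 11.30 and 11.62 on the dexrazoxane arrays, against 9.72, 11.30 and 11.46 on the vehicle arrays. The treatment difference was 0.20 with a paired interval of -0.02 to 0.42, and pair 1 (0.45) gave most of it. BNIP3L, a relative of BNIP3, and ANKRD37, an ankyrin repeat gene, differed by -0.09 and -0.01, both with pairs of mixed direction. CA12, a membrane carbonic anhydrase of pH regulation, was lower in 3 of 3 pairs, with a mean difference of -0.20 and a paired interval of -0.40 to 0.0043.

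Of 10 tested members that take up or use glucose 0 passed in either limma fit (2 at an unadjusted p under 0.05 in the paired fit, ENO2 and HK2), and their differences ran from -0.21 to 0.33. ENO2, the neuronal enolase, measured 8.16, 7.58 and 8.32 on the dexrazoxane arrays, against 7.75, 7.45 and 7.87 on the vehicle arrays. It was higher in 3 of 3 pairs with a mean difference of 0.33 ± 0.09 (SE) and a paired limma adjusted p of 0.0748. Without replicate 2 the difference was 0.43 and passed (paired limma adjusted p = 0.0187), and without replicates 1 or 3 it did not. PDK1, a kinase that inhibits pyruvate dehydrogenase, measured 8.01, 7.74 and 7.77 with dexrazoxane and 8.05, 8.27 and 7.82 with vehicle. Its mean of -0.21 came mainly from pair 2 (-0.53, against -0.04 and -0.05 in pairs 1 and 3).

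SLC2A1, the basal glucose transporter, measured 8.83, 9.05 and 9.19 with dexrazoxane and 8.77, 9.11 and 9.22 with vehicle, a difference of -0.01 with a paired interval of -0.18 to 0.16. HK2, the inducible hexokinase, was lower in 3 of 3 pairs (-0.21, paired limma adjusted p = 0.177). The abundant glycolytic genes LDHA and PGK1 differed by -0.04 and 0.02. Both have processed pseudogenes, whose share in the signal was not tested. SLC2A3, ALDOC, PFKFB3 and PFKFB4 encode a glucose transporter, an aldolase and 2 regulators of phosphofructokinase. Their brightest probe sets had differences from -0.04 to 0.04. Another SLC2A3 probe set above the filter was higher in 3 of 3 pairs, by 0.34, 0.02 and 0.44. Its mean difference was 0.27 (paired limma adjusted p = 0.204 when every probe set was fitted on its own). The remaining SLC2A3 probe set differed by 0.03.

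Of the collagen and matrix genes, P4HA2, a subunit of the prolyl hydroxylase that matures collagen, measured 9.96, 10.06 and 10.55 on the dexrazoxane arrays, against 9.50, 9.87 and 10.17 on the vehicle arrays. It was higher in 3 of 3 pairs, by 0.46, 0.19 and 0.38, with a mean of 0.34 ± 0.08 (SE) and a paired limma adjusted p of 0.0540. Without replicate 2 it passed, at 0.42 (paired limma adjusted p = 0.0209), and without replicates 1 or 3 it did not. Its other probe set above the filter differed by -0.01. The related subunit gene P4HA1 differed by -0.14 and LOX, which crosslinks collagen, by -0.01, with paired intervals of -0.39 to 0.11 and -0.20 to 0.19. INSIG2, which restrains cholesterol synthesis, differed by 0.05.

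**Figure D3:**
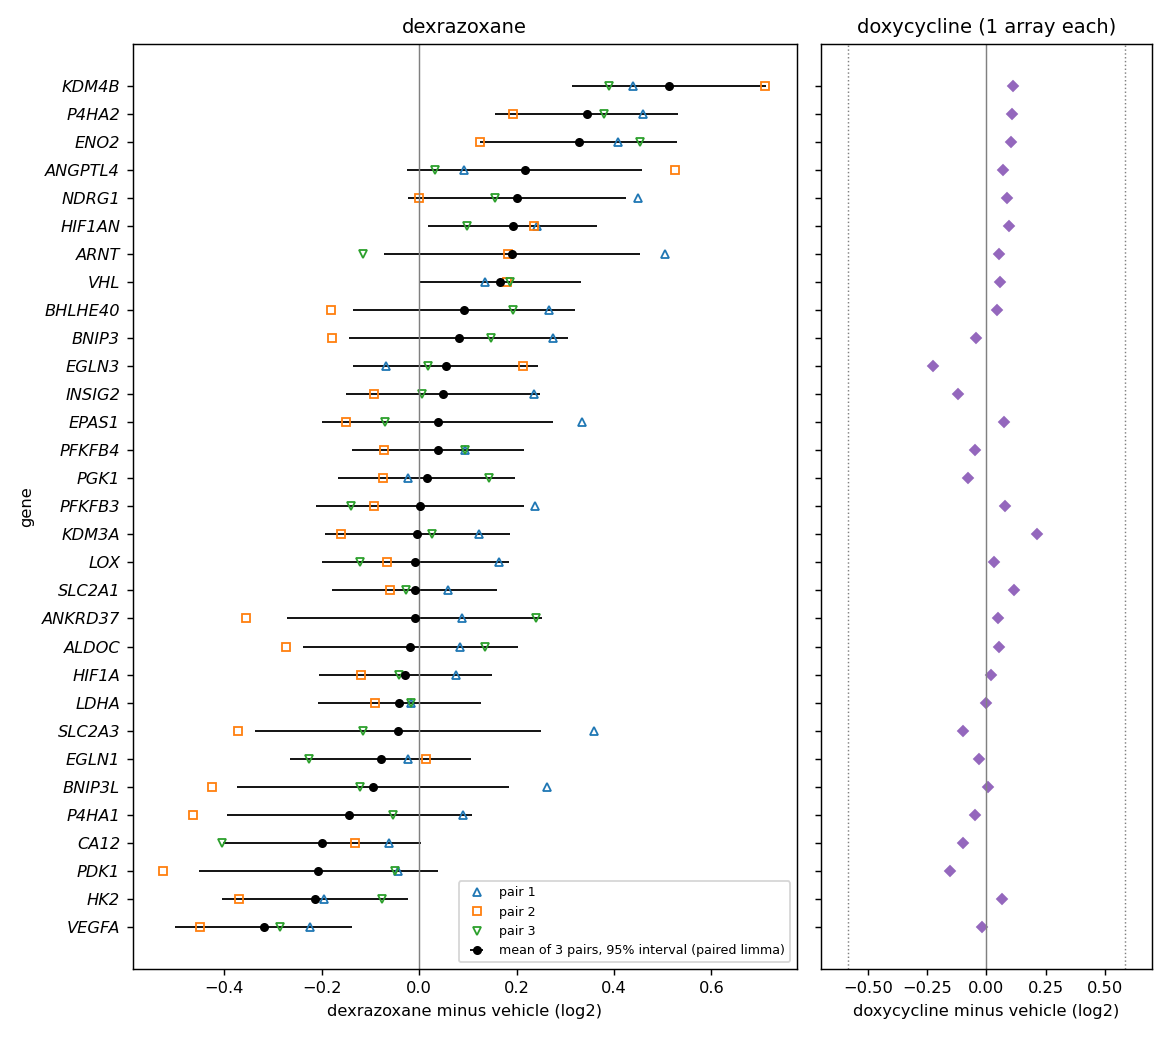
Left, dexrazoxane minus vehicle (log2) for the 31 tested genes, with the mean of 3 pairs and its 95% interval from the paired limma fit as black points and bars and each pair as an open symbol; right, doxycycline minus vehicle for the same genes from 1 array each, with dotted lines at 1.5-fold. Only the KDM4B interval reaches past 1.5-fold, and every doxycycline point lies inside the dotted lines.

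Outside the members, the gene of the pathway that passed was CITED2, a HIF target whose protein competes with HIF alpha for its coactivators and so restrains it. It measured 10.27, 10.21 and 10.05 on the dexrazoxane arrays, against 9.62, 9.17 and 9.30 on the vehicle arrays, and the groups did not overlap. The difference was 0.81 ± 0.09 (SE, 1.76-fold), with pairs 1 to 3 at 0.66, 1.04 and 0.75. For CITED2 the paired limma adjusted p was 0.0073, or 0.0298 with replicate 1 left out, and the unpaired one 0.362. These values are from the brightest of its 3 probe sets. Of 19 tested HIF regulators and cofactors CITED2 was the 1 called in the paired fit. That is 5.26% of the list, against 4.87% of all genes, a share near the background.

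In the paired limma fit 0 of 31 other hypoxia-induced genes, 0 of 17 other glycolytic enzymes, 0 of 22 other oxygen-dependent dioxygenases and 0 of 9 iron handling genes were called. At an unadjusted p under 0.05 these lists held 3, 2, 4 and 0 genes, and the HIF regulators and cofactors 6 of 19 (4 higher, 2 lower), where 22.4% of all genes passed. Their median differences were 0.06, 0.02, 0.07 and -0.01, against 0.016 over all genes. For scale, 8 of 14 tested p53-induced genes were called higher and 0 lower in the same fit, where 2.42% and 2.44% of all genes were. The 4 with the smallest p were TP53I3 (0.89), MDM2 (0.58), TP53INP1 (1.04) and XPC (0.47), as log2 differences. Without replicate 1 the count of p53-induced genes called higher fell to 2, TP53I3 and TP53INP1 (paired limma adjusted p = 0.0279 and 0.0316), while MDM2 and XPC were no longer called (0.0660 and 0.103). The limma fit without pairing called 0 genes in each of these lists.

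Spread between replicate numbers was set beside the treatment difference. The range over the 3 replicate numbers, each taken as the mean of its dexrazoxane and vehicle arrays, was used. It exceeded the size of the treatment difference for 28 of the 31 members, as it did for 85.4% of all genes. A range over 3 means tends to exceed 1 difference of means even from noise alone, so this count is no result about the members. The median range was 0.43 (log2) over the members and 0.30 over all genes. With probe sets of the less specific kinds left out it was 0.318 over 19 members and 0.305 over all genes. With the mean of each gene's probe sets it was 0.292 over 30 members and 0.249 over all genes. A limma F test on the replicate number called 18 of 31 members (58.1%), against 38.7% of all genes. This contrast between list and background is a description, since the members were not drawn at random, and it was smaller when probe sets of the less specific kinds were left out (8 of 19 members, 42.1%, against 35.7%). Without replicate 1, the SD of the members' differences between replicates 2 and 3 was 0.412 with dexrazoxane and 0.301 with vehicle, against 0.285 and 0.221 over all genes.

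ALDOC, the brain aldolase and a HIF target, had the widest range among the members. It measured 6.80, 7.40 and 8.77 on the dexrazoxane arrays, against 6.72, 7.67 and 8.63 on the vehicle arrays. The range over replicate numbers was 1.94 (3.83-fold), rank 14 of 14731 genes, with a limma F adjusted p of 0.00033. NDRG1 followed with 1.59 (3.02-fold, rank 33, limma F adjusted p = 0.00055), low on both replicate 1 arrays. SLC2A3 ranged by 1.13, VEGFA by 0.95, BHLHE40 by 0.80, ANKRD37 by 0.76, P4HA1 by 0.69 and BNIP3 by 0.64, all with limma F adjusted p under 0.05. HK2 ranged by 0.53 in its brightest probe set, while its other 2 probe sets above the filter put replicate 3 below replicate 1 by 0.67, where the brightest put it above. For LOX the brightest probe set ranged by 0.37, and 2 other probe sets put replicate 3 above replicate 1 by 1.11 and 1.56.

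Replicate 1 was the lowest array of both groups for 13 members (41.9%), against 24.8% of all genes, and the highest of both for 4 members (12.9%), against 31.9%. The 4 were ARNT, EGLN1, KDM3A and PFKFB3, of which EGLN1 did not pass the F test (limma F adjusted p = 0.0724). HIF1A, LDHA and HIF1AN hardly differed between replicate numbers, with ranges of 0.05, 0.05 and 0.04. The same F test called 19 of 31 other hypoxia-induced genes, 7 of 9 iron handling genes, 11 of 22 dioxygenases, 6 of 19 HIF regulators, 6 of 14 p53-induced genes and 2 of 17 other glycolytic enzymes. Replicate 1 was the lowest array of both groups for 12, 4, 3, 4, 8 and 3 genes of these lists, in the same order. DDIT4, a stress-induced inhibitor of growth signalling picked after its value was seen, ranged by 1.35. The array medians were lower for replicate 1 (5.491 with dexrazoxane and 5.504 with vehicle) than for the others (5.517 to 5.568). The difference between both ends of ACTB was 0.10 and 0.11 on the replicate 1 arrays and -0.04 to 0.08 on the others of the 6 (log2). The same difference for GAPDH was -0.06 and -0.07 on the replicate 1 arrays, inside or near the -0.10 to -0.06 of the others. The part of these in the result was not tested.

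**Figure D4:**
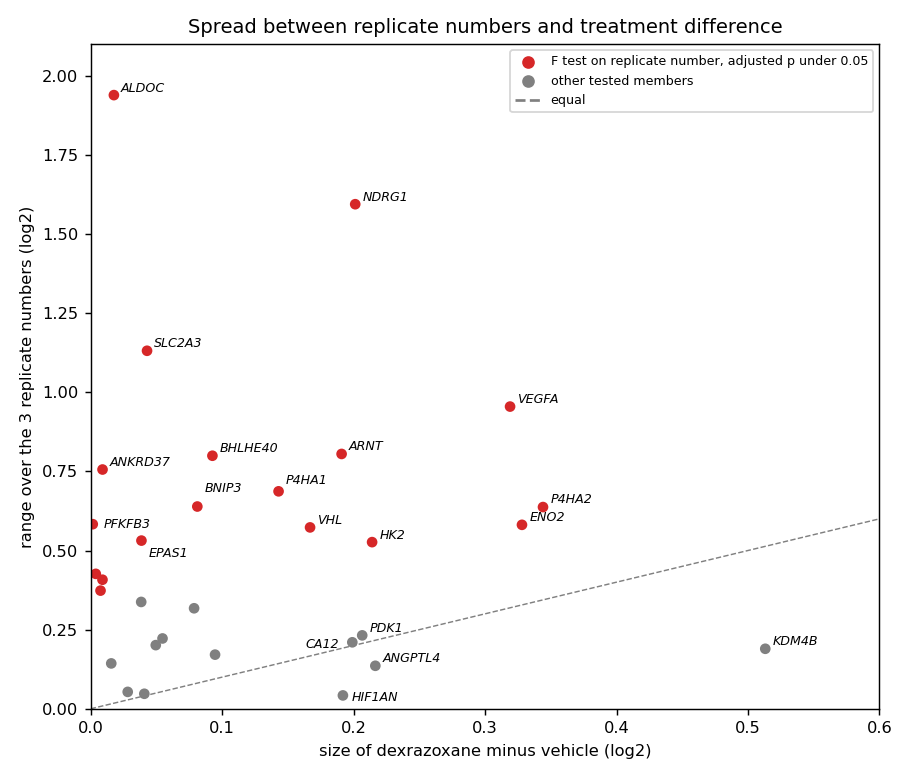
Each point is 1 of the 31 tested genes, placed by the size of its mean dexrazoxane minus vehicle difference (x axis, log2) and its range over the 3 replicate numbers (y axis, log2), with red for an F test adjusted p under 0.05. ALDOC at 1.94 and NDRG1 at 1.59 lie highest, and KDM4B, with a treatment difference of 0.51, lies farthest right and below the line of equality.

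HIF binds a short core sequence, the hypoxia response element, read here as ACGTG or GCGTG on either strand. Windows of 250 bases before the RefSeq start site (GRCh38.p14) were searched, the first listed window for each gene. The table held windows for 29 members, and 23 of them (79.3%) had at least 1 match, against 43.1% of 27305 genes. The core holds a CG, and member windows were richer in G and C (median 68.8% against 58% of bases), so the shares are not matched for base composition. The E-box CACGTG, which BHLHE40 binds, contains the core on both strands, and 6.34% of all windows held it. Windows are shown for the member called with dexrazoxane, KDM4B, and for the 3 members with the widest range between replicate numbers among those in the table, with matches in capitals. KDM4B, ALDOC and BHLHE40 each had 1 CACGTG near the upstream end of the window, and ARNT had no match. Whether matches go with the pattern across replicate numbers was not tested. EGLN1, KDM3A and PFKFB3, like ARNT highest on both replicate 1 arrays, each had 1 match.
KDM4B, chr19:4968863-4969112, plus strand: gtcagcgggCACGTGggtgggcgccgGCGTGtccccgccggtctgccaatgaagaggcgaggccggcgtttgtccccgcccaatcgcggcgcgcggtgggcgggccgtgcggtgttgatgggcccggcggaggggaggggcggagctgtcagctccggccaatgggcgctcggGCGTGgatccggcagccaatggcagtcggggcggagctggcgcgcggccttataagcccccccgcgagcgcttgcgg
ALDOC, chr17:28576896-28577145, minus strand: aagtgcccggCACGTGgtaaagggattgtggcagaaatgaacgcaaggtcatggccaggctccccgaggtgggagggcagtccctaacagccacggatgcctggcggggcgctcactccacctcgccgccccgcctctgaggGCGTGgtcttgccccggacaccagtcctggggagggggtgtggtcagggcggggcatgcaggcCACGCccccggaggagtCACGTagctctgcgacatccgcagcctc
BHLHE40, chr3:4979187-4979436, plus strand: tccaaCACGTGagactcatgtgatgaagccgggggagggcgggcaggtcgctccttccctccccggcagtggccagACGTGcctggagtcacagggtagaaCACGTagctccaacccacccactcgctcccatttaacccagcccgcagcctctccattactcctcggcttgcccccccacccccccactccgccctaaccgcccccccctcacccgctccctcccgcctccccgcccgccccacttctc
ARNT, chr1:150876600-150876849, minus strand: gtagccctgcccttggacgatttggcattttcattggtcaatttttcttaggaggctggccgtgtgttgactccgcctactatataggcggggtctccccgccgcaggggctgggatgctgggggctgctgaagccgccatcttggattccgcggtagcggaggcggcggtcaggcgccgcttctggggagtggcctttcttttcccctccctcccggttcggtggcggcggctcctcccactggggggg

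With TOP2A shut off by doxycycline, 0 of the 31 members differed by at least 1.5-fold between the 2 arrays, against 0.129% of all genes tested. There is 1 array in each group, so no difference here has an error or a test. The median difference was 0.04 (log2) over the members and 0.02 over all genes, with 19 members above 0 and 12 below. The 3 largest among tested members were those of EGLN3, at 4.10 on the doxycycline array and 4.32 on its vehicle array (-0.23), KDM3A, at 8.39 and 8.18 (0.21), and PDK1, at 7.55 and 7.71 (-0.16). All 31 lay inside the span of -0.30 to 0.26 that held the middle 95% of all genes.

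KDM4B stood at 7.81 with doxycycline and 7.70 with its vehicle, a difference of 0.11, and VEGFA at 9.15 and 9.17. P4HA2 differed by 0.11 and ENO2 by 0.10. CITED2, at 9.25 and 9.26, differed by -0.0099. NDRG1 and ALDOC differed by 0.09 and 0.05, and HIF1A, at 12.04 and 12.03, by 0.02. ADM and EGLN2, below the filter, stood at 3.54 and 4.22 with doxycycline and at 3.35 and 3.95 with its vehicle.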

How the data were processed

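Expression was measured on 8 arrays carrying biotinylated cRNA from HTETOP cells. The authors deposited log2 values for each probe set. Per the submitters' processing notes the method was RMA. Its version, and whether all arrays went through it together, are not given in the sources used here. Gene names came from the platform annotation, updated with a RefSeq gene table (GRCh38.p14), and only those annotated to 1 gene were used. The brightest probe set (mean of 8 arrays) stood for its gene, and genes were tested if that mean was at least 4.83, the 40th percentile over probe sets. The two-sided tests of dexrazoxane against vehicle used limma (3.58.1, R 4.3.3), with Benjamini-Hochberg adjustment over all 14731 tested genes and 0.05 as the bound.

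A second fit, planned as an alternative, took same-numbered arrays as pairs. Deviations from the group means correlated at 0.57 to 0.82 between arrays with the same replicate number and at -0.63 to 0.18 otherwise, over all tested genes. These are the same arrays that were tested, and deviations cancel out within a group. Positive values at the same number therefore push the others down, and part of the contrast is built in. No label states the pairing, which rests on this check. On simulated arrays the fits returned the shifts put in. The paired fit and the F test found nearly all shifted genes, while the fit without pairing missed the smallest shifts. These shifts were larger than the treatment difference and the range of most members. The simulation therefore does not say how often differences of the members' size would be found. The F test kept near its bound when variances were drawn from limma's fitted prior and made more false calls than the bound allows when variances were less spread. The limma F test on the replicate number, its alternative settings and the fit of every probe set on its own were added after the values were seen.

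The members and gene lists were chosen with earlier results of these data known. Values by array are given for a fixed set of members, for members without overlap between groups, and for the largest differences. Alternative settings (filter, probe sets, scaling, variance model, arrays left out) are described in the closing section. CA9 was not analysed here.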

Additional observations from a re-analysis of the deposited data

How the results depend on the processing

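Without pairing, 0 members were called under every alternative run, also with any 1 array left out. With the replicate block 1 of 31 members was called higher. The same number was called with specific probe sets (19 tested), with arrays centred on their median and after another quantile normalization. With no filter 2 of 33 were called, KDM4B and ADM. KDM4B, ENO2 and P4HA2 were called with the 60th percentile filter (3 of 29) and with trended and robust variance (3 of 31). With the block, 1 was called lower with the 60th percentile filter (VEGFA) and 2 with trended and robust variance (VEGFA and HK2). With the mean of probe sets 0 of 30 were called. Shares of all genes called under these settings are not given here, so the counts have no background beside them. With the block and replicate 1, 2 or 3 left out, 0, 3 and 1 members were called higher. Of all genes 0.665%, 5.63% and 2.79% were then called in either direction.

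The doxycycline median moved to 0.015 after another quantile normalization. The F test on the replicate number called 8 of 19 members with specific probe sets (42.1%, against 35.7% of all genes). With the mean of probe sets it called 13 of 30 (43.3%, against 31.8%). Under the other settings it called 18 or 19 members, which was 54.5% to 65.5%, against 27.3% to 47.9% of all genes. The dexrazoxane median ran from -0.064 to 0.098 with 1 array left out.

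Several small differences changed sign without any call. With the mean of probe sets EPAS1 stood at -0.0065, EGLN1 at 0.060, SLC2A1 at 0.0056 and KDM3A at 0.0093, with or without the block, and with specific probe sets SLC2A1 stood at 0.020. With arrays left out the ranges were -0.080 to 0.018 for HIF1A (highest 0.011 without the block), -0.20 to 0.18 for EPAS1, -0.15 to 0.41 for ARNT, -0.0046 to 0.33 for VHL, -0.18 to 0.030 for EGLN1, -0.025 to 0.16 for EGLN3 (lowest -0.024 without the block), -0.15 to 0.22 for BNIP3, -0.35 to 0.63 for NDRG1, -0.14 to 0.089 for SLC2A1 and -0.12 to 0.17 for KDM3A. With the block and 1 replicate number left out, EPAS1 reached -0.11, BNIP3 -0.016, SLC2A1 1.9e-05 and 0.016, and KDM3A 0.075. Without a change of sign, single arrays left out of the fit without pairing moved VEGFA between -0.60 and -0.069, ENO2 between 0.18 and 0.55, P4HA2 between 0.16 and 0.51, PDK1 between -0.32 and -0.095 and ANGPTL4 between 0.11 and 0.29. The cause was not tested. The number of arrays limits every value, and dim genes such as EGLN3 and ADM lie near the background of the arrays.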
